A study of Mus musculus with 4 samples.

Results

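The 10 genes described here encode transcription factors of the AP-1 family (Fos, Fosb, Fosl2, Jun, Junb and Jund), the related factor Atf3, the zinc-finger factor Egr1, and the early-response genes Ier2 and Dusp1. They were taken by symbol from the 31053 genes of the deposited matrix, and all 10 were found once. The series profiled single cells from mice in which genes were used to induce hepatocellular carcinoma, a cancer of hepatocytes, with 1 labelled sample per stage: normal liver at week 0 and tumour tissue at week 4, week 8 and a late stage that the sample label puts at week 10 and the series design at week 12. The sources used here name neither the inducing genes nor the strain and age of the mice. The deposited matrix joins 4 libraries whose cell barcodes end in 1, 2, 3 or 4. No label pairs a suffix with a stage, so the suffixes are given below as 4 unmapped libraries and no stage is assigned to any of them.

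AP-1 is a dimer of a Fos protein with a Jun protein, or of 2 Jun proteins, that binds DNA and drives transcription after growth factor, stress and cytokine signals. Fos, Fosb, Jun, Junb, Atf3, Egr1, Ier2 and Dusp1 are immediate-early genes, meaning that they are transcribed from pre-existing factors without new protein synthesis, and their messages are short-lived. Jund is known as the more steadily expressed member of the Jun family, and Fosl2 as a later and longer-lived Fos protein. In liver, Jun is known for its part in hepatocyte proliferation during regeneration and in chemically induced tumours. Immediate-early genes are also known to be induced when tissue is digested into single cells. All 4 samples were digested, so messages present in the tissue and messages gained during handling cannot be told apart here.

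The 4 libraries held 9222, 9027, 10316 and 9507 barcodes with 15593960, 49975828, 24012736 and 40617071 unique molecular identifiers (UMIs, counts of captured messages), for suffixes 1 to 4. After removing barcodes with few genes or UMIs, with 20% or more mitochondrial UMIs, or scored as doublets, 34783 cells were left and fell into 25 clusters. All 25 were named from marker lists, giving 15 classes, each written as "like" its marker type; 20411 cells were hepatocyte-like and 14372 were of other classes. Among these cells 1174 carried a barcode sequence that also occurred under another suffix. Levels are UMIs of the gene per 1000000 UMIs of the cells pooled (CPM), and 95% intervals are exact Poisson intervals for levels and exact conditional binomial intervals for ratios. They cover counting error only, because cells of 1 library are not replicates. A ratio of CPM between 2 groups of cells was called when it was at least 2 in size, its interval excluded 1, the gene had at least 100 UMIs in both groups together, and the direction was the same in every suffix holding at least 20 cells of each group. With 1 library per suffix and no map to stages, no p-values are given.

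The promoters of Fos, Atf3, Dusp1 and Jun are shown because the likeness of these genes to other members differed. Fos, Atf3 and Dusp1 each had another member among the 3 genes most like them across classes and suffixes. Jun had no member there, although the gene most like it, Rhob, is also an early gene. Each promoter is the 250 bases before the RefSeq transcription start in build GRCm38.p6, on the gene's own strand. The matrix itself carries no coordinates, and the submitters' processing notes name mm9. Capitals mark the core of the cyclic AMP response element (TGACG, on either strand), the whole element (TGACGTCA, which contains 2 overlapping cores) and the TATA box (TATAAA).
Fos: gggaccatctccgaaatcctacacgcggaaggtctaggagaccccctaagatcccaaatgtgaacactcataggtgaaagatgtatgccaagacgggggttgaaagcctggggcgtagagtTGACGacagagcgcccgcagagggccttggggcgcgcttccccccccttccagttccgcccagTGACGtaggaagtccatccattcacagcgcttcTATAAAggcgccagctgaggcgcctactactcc
Atf3: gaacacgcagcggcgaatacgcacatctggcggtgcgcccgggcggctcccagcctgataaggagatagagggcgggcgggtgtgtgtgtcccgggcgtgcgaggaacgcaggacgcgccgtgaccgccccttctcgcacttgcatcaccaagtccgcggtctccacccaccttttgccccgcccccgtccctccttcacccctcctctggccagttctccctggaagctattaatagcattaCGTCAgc
Dusp1: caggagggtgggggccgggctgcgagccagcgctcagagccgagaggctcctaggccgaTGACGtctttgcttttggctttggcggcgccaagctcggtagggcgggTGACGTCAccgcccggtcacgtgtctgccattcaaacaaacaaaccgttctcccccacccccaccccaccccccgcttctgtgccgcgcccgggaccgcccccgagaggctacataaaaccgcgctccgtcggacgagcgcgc
Jun: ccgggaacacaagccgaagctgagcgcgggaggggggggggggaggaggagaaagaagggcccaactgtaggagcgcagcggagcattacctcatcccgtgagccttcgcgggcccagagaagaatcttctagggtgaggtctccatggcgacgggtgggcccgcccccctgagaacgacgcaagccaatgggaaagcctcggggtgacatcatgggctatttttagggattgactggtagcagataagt
These lie at chr12:85473640-85473889 on the plus strand for Fos, chr1:191183334-191183583 on the minus strand for Atf3, chr17:26508473-26508722 on the minus strand for Dusp1 and chr4:95052223-95052472 on the minus strand for Jun. Promoter windows of 8 of the members were searched, over 250 bases before to 50 after the start and on both strands. Those of Egr1 and Ier2 are not reported here, so the counts below say nothing of them. The core occurred in 5 of the 8 (Fos, Fosb, Junb, Atf3 and Dusp1), against 20.8% of 32851 RefSeq promoter windows. The whole element occurred in Dusp1 alone among the 8, against 1.79% of all windows. TATAAA was present in Fos and Junb, against 13.6% of all windows, and GCGNGGGCG, a motif of the EGR factors, was present in Fosb and Fosl2, against 5.55%. The TATAAA of Fos begins at -33 from the start, whereas that of Junb begins at 0, the annotated start itself, and not before it. Neither the AP-1 motif TGANTCA nor the CArG box, the motif of serum response factor, was found in any of the 8 windows, against 7.81% and 1.63% of all windows. These are exact letter matches in short windows, so variants of a motif were not counted, and binding was not measured. The Jun window, for example, holds tgacatca, a variant of the whole element, which is left unmarked.

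Across the 15 classes, the members were highest in 4 kinds of cell. Vascular endothelial cell-like cells had the highest level of 3 members (Fos, Jun and Jund), against 4.20% of the 13461 genes with at least 100 UMIs. Mature neutrophil-like cells had the highest level of 3 (Fosl2, Junb and Dusp1), against 5.07% of genes, and cholangiocyte-like cells, which resemble the lining of bile ducts, of 3 (Atf3, Egr1 and Ier2), against 12.9%. Kupffer cell-like cells, which resemble the liver's resident macrophages, had the highest level of 1 (Fosb), against 5.27%. Cholangiocyte-like cells numbered 98, of which 71 were in suffix 1 and 23 in suffix 3. Without suffix 1, or with suffixes at equal weight, cholangiocyte-like cells had the highest level of 7 members and vascular cells of none, so these first places depend on how the libraries were pooled.

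**Figure D1:**
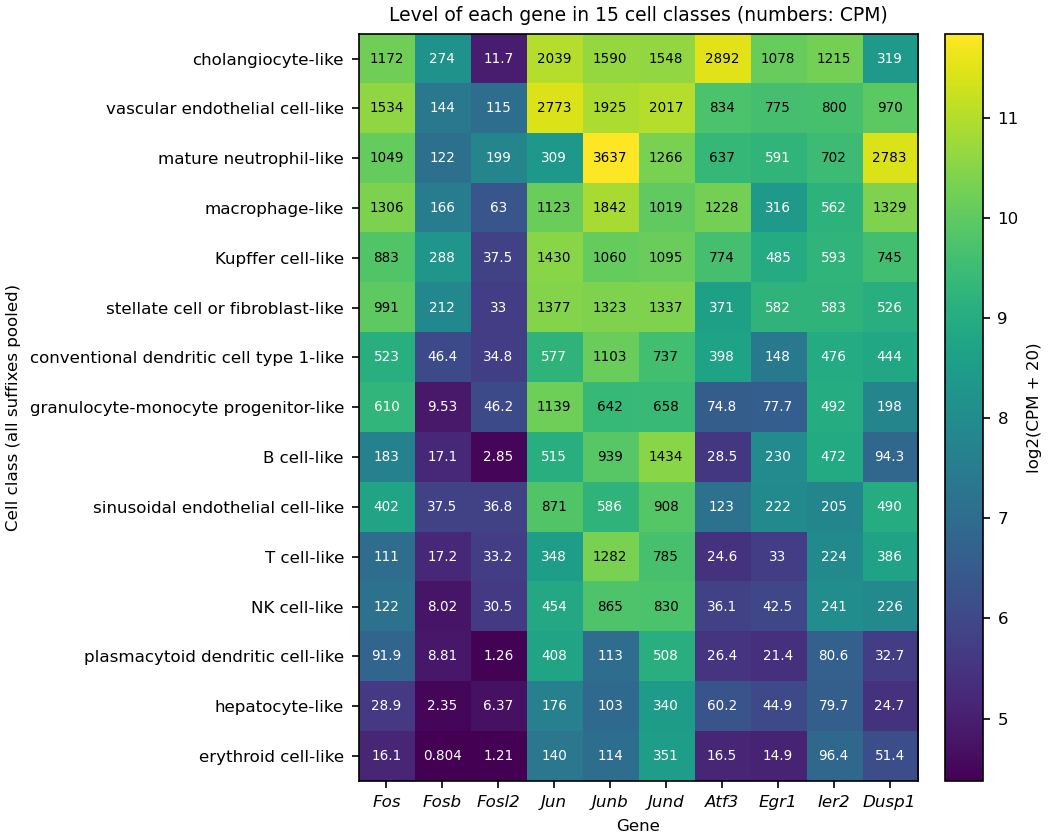
Level of each gene (columns) in the 15 cell classes (rows, ordered by the summed level of the 10 genes), with all suffixes pooled; the printed numbers are CPM and the colour is log2(CPM + 20). The bottom rows, hepatocyte-like and erythroid cell-like cells, have the lowest sums, and Jun is low in mature neutrophil-like cells (309 CPM) where Junb (3637 CPM) and Dusp1 (2783 CPM) are high.

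Among the Fos genes, Fos reached 1534 CPM in vascular endothelial cell-like cells (interval 1494 to 1574), 1306 in macrophage-like cells (1277 to 1335) and 1172 in cholangiocyte-like cells (1087 to 1262). Vascular cells were above macrophage-like cells in only 2 of 4 suffixes, so the order of the first 2 is not settled. At the other end, Fos was at 183 CPM in B cell-like, 111 in T cell-like, 28.9 in hepatocyte-like and 16.1 in erythroid cell-like cells. Fosb was at 288 CPM in Kupffer cell-like cells and 274 in cholangiocyte-like cells, a ratio of 1.05 whose interval (0.880 to 1.26) includes 1. Fosl2 reached 199 CPM in mature neutrophil-like cells and 115 in vascular endothelial cell-like cells, and the first was the higher in 3 of 4 suffixes. In B cell-like cells Fosl2 was at 2.85 CPM (1.37 to 5.24).

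The 3 Jun genes did not rank the classes in the same order. Jun reached 2773 CPM in vascular endothelial cell-like cells, 2039 in cholangiocyte-like cells and 1430 in Kupffer cell-like cells, and at 309 in mature neutrophil-like, 176 in hepatocyte-like and 140 in erythroid cell-like cells. In the 2 suffixes where both could be compared, the vascular level of Jun was below the cholangiocyte-like level, against the pooled order. Junb, known as both a partner and a competitor of Jun, was highest in mature neutrophil-like cells at 3637 CPM and was above vascular cells (1925 CPM) in all 4 suffixes. T cell-like cells stood at 1282 CPM for Junb but at 348 for Jun. Jund ranged least, from 340 CPM in hepatocyte-like cells and 351 in erythroid cell-like cells to 2017 in vascular cells, and B cell-like cells were at 1434.

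Atf3, a stress-induced repressor, was at 2892 CPM in cholangiocyte-like cells and 1228 in macrophage-like cells. That cholangiocyte value joined very unlike libraries: 525 CPM in the 71 cells of suffix 1 and 6177 in the 23 cells of suffix 3. In suffix 1 it lay below the macrophage-like level (1113 CPM), and in suffix 3 above it (1947 CPM). Egr1 was at 1078 CPM in cholangiocyte-like cells and 775 in vascular cells, and Ier2 at 1215 and 800, each in the same order in both suffixes that could be compared. Dusp1, a phosphatase that switches off MAP kinases, was at 2783 CPM in mature neutrophil-like cells, 1329 in macrophage-like cells and 970 in vascular cells, and the first was above the second in all 4 suffixes. Atf3 and Egr1 were low in T cell-like cells (24.6 and 33 CPM), where Dusp1 was at 386.

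The mix of members therefore differed between classes. Jun made up 2.73% of the members' UMIs in mature neutrophil-like cells, 10.7% in T cell-like cells, 23.3% in vascular endothelial cell-like cells and 31.6% in plasmacytoid dendritic cell-like cells. Jund made up 39.2% in hepatocyte-like cells and 11.2% in mature neutrophil-like cells. Junb made up 39.5% in T cell-like cells and 8.77% in plasmacytoid dendritic cell-like cells. Dusp1 took 24.6% of the members' UMIs in mature neutrophil-like cells and 2.63% in cholangiocyte-like cells, where Atf3 took 23.8%.

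Vascular endothelial cell-like cells were set against sinusoidal endothelial cell-like cells, the fenestrated lining of the liver's capillaries. Pooled, all 10 members had the higher level in vascular cells, with a median log2 ratio of 1.76 against 0.015 over 7377 genes, but only Atf3 was called (1 of 10, against 3.75% of genes). Atf3 was at 97.1, 844, 548 and 1014 CPM in the vascular cells of suffixes 1 to 4 and at 36.8, 150, 394 and 359 in the sinusoidal cells. The vascular cells were the higher in each suffix, and the pooled ratio was 6.77 (6.06 to 7.59). In suffix 1 that order came from cluster 20, one of the 2 vascular clusters (24 UMIs, 111 CPM); cluster 15, the other, had 2 UMIs there (38.4 CPM, interval 4.65 to 139), which cannot be told from the sinusoidal 36.8. Jun was at 358, 2856, 2431 and 3178 CPM in vascular cells and at 429, 1474, 2229 and 1814 in sinusoidal cells. Fos was at 116, 1734, 708 and 1793 CPM in vascular cells and at 270, 489, 783 and 813 in sinusoidal cells. Both were lower in the vascular cells of suffix 1, which hold 168 of the 1846 vascular cells, while suffix 1 holds 1909 of the 2556 sinusoidal cells, so pooled ratios set mostly one library against others. Without suffix 1, 5 members were called higher (Fosb, Fosl2, Atf3, Egr1 and Ier2), and the log2 ratio of Atf3 was 1.37 in place of 2.76. The direction then had to agree in fewer suffixes, and no share of all genes is given for that setting. The larger count is therefore not a result about the members.

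The vascular class itself has a limit. Its cluster 15 (1668 cells, led by Igfbp3, Ly6c1, Esm1 and Apold1) scored higher on sinusoidal than on vascular markers. It was named vascular because 1 of its 10 leading genes, Ly6c1, was a listed vascular marker and none was a sinusoidal one. Cluster 20 (178 cells, led by Rspo3, Vwf and Wnt9b) was low in the members: Jun was at 620 CPM there and at 3003 in cluster 15, and Atf3 at 107 and 912. In clusterings at resolution 2 and with doublets kept, 1344 and 1343 of the cells of cluster 15 went to the sinusoidal class, 0 members were called, and the log2 ratio of Atf3 was 0.55 and 0.76. The median mitochondrial share was 3.83% in vascular and 1.28% in sinusoidal cells, and among cells under 5% the log2 ratio of Atf3 was 3.01. Of the 10 other immediate-early transcription factors with enough UMIs to be tested, 4 were called higher in vascular cells, among them Nr4a1 (400 against 38.9 CPM), Csrnp1 (100 against 22.1) and Klf6 (550 against 144). Of 24 other immediate-early regulators 4 were called higher, led by Tnfaip3 (141 against 21.4 CPM), and none of 10 MAP kinases. Hspb1, a small heat shock protein, was at 1646 against 192 CPM.

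Mature neutrophil-like cells were compared with macrophage-like cells, the other abundant phagocytes. Of the members, 2 were called higher (Fosl2 and Dusp1, against 6.80% of genes) and 1 lower (Jun, against 33.4%), and the median log2 ratio was 0.32 against -0.90 over 6766 genes. Fosl2 was at 354, 198, 178 and 111 CPM in the neutrophil-like cells of suffixes 1 to 4 and at 59.2, 51.8, 143 and 65.3 in macrophage-like cells. Jun was at 46.1, 564, 303 and 396 CPM in neutrophil-like cells and at 832, 1086, 1522 and 1124 in macrophage-like cells. The ranges did not overlap for Jun over the 4 suffixes, whereas the highest macrophage-like value of Fosl2 exceeded the lowest neutrophil-like value. Dusp1 was at 2298, 3829, 2199 and 4914 CPM in neutrophil-like cells and at 663, 1457, 1240 and 1056 in macrophage-like cells. Its pooled ratio of 2.09 (1.998 to 2.19) lies at the limit of the call, and the call was lost in several alternatives, among them leaving out suffix 4 and keeping only cells under 5% mitochondrial UMIs. Junb had a ratio of 1.98 (1.90 to 2.06) and Egr1 of 1.87 (1.69 to 2.06), both just short of the limit and higher in neutrophil-like cells in 4 of 4 suffixes.

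Other early genes differed in both directions between these cells, where 6.80% of all genes were called higher and 33.4% lower. Neutrophil-like cells had the highest level among the 15 classes of 13 of the 24 other immediate-early regulators, among them Nfkbia, Zfp36, Btg2 and Ier3. Against macrophage-like cells 11 of the 21 with enough UMIs to be tested were called higher, led by Gadd45a (222 against 20.8 CPM), Trib1 (445 against 63.5) and Plk3 (422 against 66), and 2 lower (Sgk1 and Rhob). Of 12 other immediate-early transcription factors tested, 5 were called higher (Nr4a3, Csrnp1, Klf2, Nr4a1 and Klf10) and 4 lower (Klf4, Hes1, Egr2 and Myc). The share called lower was close to that of all genes. Of the heat shock genes 6 of 11 were called lower and none higher, with Hspa1a at 23.1 against 278 CPM. Other AP-1 and related genes gave 2 higher (Jdp2 and Maff) and 1 lower (Batf3) of 10 tested.

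Kupffer cell-like and macrophage-like cells were not separated by the call: 0 of 10 members were higher (against 3.65% of genes) and 0 lower (against 4.70%), with a median log2 ratio of -0.24 against -0.05 over 7336 genes. Fos, Fosl2 and Atf3 were lower in Kupffer cell-like cells in all 4 suffixes, at pooled ratios of 0.676, 0.594 and 0.630. Suffix 1 holds 487 of the 823 Kupffer cell-like cells but 123 of the 2084 macrophage-like cells. Without it, 4 members were called lower in Kupffer cell-like cells (Fos, Junb, Atf3 and Dusp1, at log2 ratios of -1.06, -1.29, -1.14 and -1.53), and Jun, Jund, Egr1 and Ier2 changed direction. The shares of all genes above are for all suffixes together, and none is given without suffix 1, where fewer suffixes had to agree. Of the wider lists, 3 of the 4 dual-specificity phosphatases with enough UMIs to be tested were called lower in Kupffer cell-like cells, with Dusp5 at 10.9 against 62.5 CPM.

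Hepatocyte-like cells were below the pooled other named cells for every member. All 10 members were called lower there than in the other named cells, against 36.5% of genes, with a median log2 ratio of -2.93 against -0.51 over 13400 genes. Dusp1 was at 24.7 CPM in hepatocyte-like cells and 638 in the others, a ratio of 0.0387 (0.0370 to 0.0405). Jund was the least different, at 340 and 1056 CPM, a ratio of 0.322 (0.317 to 0.327). For Jun the values were 176 and 975 CPM, and for Fos 28.9 and 670. Each member was lower in hepatocyte-like cells in 4 of 4 suffixes. Class by class they were not always the lowest: Atf3 was at 60.2 CPM there but at 36.1 in NK, 28.5 in B and 24.6 in T cell-like cells, Egr1 at 44.9 but at 42.5 in NK and 33 in T cell-like cells, and Fosl2 at 6.37 but at 2.85 in B cell-like cells. The hepatocyte-like levels of Jund, Junb and Jun lay near those of erythroid cell-like cells (340 and 351, 103 and 114, 176 and 140 CPM), and how much of either came from free RNA in the droplets was not tested.

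Most of the wider immediate-early lists were low in hepatocyte-like cells too. There 12 of 14 other immediate-early transcription factors and 21 of 24 other regulators were called lower, with Klf2 at 6.48 against 587 CPM and Ppp1r15a at 12.8 against 321. Exceptions were Atf5 (158 against 31.9 CPM), a stress-response factor known in liver, and Errfi1 (397 against 92.6 CPM), a feedback inhibitor of the EGF receptor, both called higher. MAP kinases, which signal to AP-1, gave 1 lower of 10 (Map3k8). Among heat shock genes the mitochondrial chaperones Hspd1 and Hspe1 were higher (1398 against 433 and 1586 against 571 CPM), while 4 of 11, including Hspa1a and Hspa1b, were lower, a share close to the 36.5% of all genes.

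Within the hepatocyte-like cells, 1 large cluster stood above the rest. Cluster 3 (2297 cells, led by Afp, Apoa4, Igfbp1 and H19, the first and last known as fetal liver and tumour genes) had 8 members called higher than in the other hepatocyte-like cells, against 27.9% of genes, with a median log2 ratio of 2.15 against 0.38. Jun was at 499 CPM in cluster 3 and 66.9 in the other hepatocyte-like cells, a ratio of 7.46 (7.20 to 7.72). Egr1 was at 120 and 19.7 CPM, and Fos at 73.5 and 13.9. Fosb had a ratio of 9.10 (6.60 to 12.7), but at levels of 7.03 and 0.772 CPM. Fosl2 (ratio 1.41) and Jund (1.81) were not called. The cluster is made of 1445 cells of suffix 2, 748 of suffix 4, 101 of suffix 3 and 3 of suffix 1.

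The level in cluster 3 was alike in the libraries that hold it for some members and not for others. Jun was at 519, 478 and 460 CPM in its cells of suffixes 2, 3 and 4, and Jund at 511, 421 and 521. Junb was at 265, 85.5 and 190 CPM in the same order, and Ier2 at 192, 79.8 and 154. Junb and Ier2 were thus lowest in the 101 cells of suffix 3, and Jun in those of suffix 4. Cluster 3 cells had a median mitochondrial share of 4.79% against 0.917% over all hepatocyte-like cells. Among hepatocyte-like cells under 5%, 7 members were called higher in cluster 3, and the log2 ratio of Jun was 2.81. At resolution 2, the cluster most like it had 5 called, with a log2 ratio of 1.12 for Jun. Neither of these counts has a share of all genes beside it. Other early regulators moved with the members: 15 of 23 tested were called higher in cluster 3, led by Cyr61 (35.2 against 4.62 CPM), Nfkbiz (31.1 against 4.13) and Ier3 (44.4 against 6.42), while none of 9 MAP kinases tested was.

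**Figure D2:**
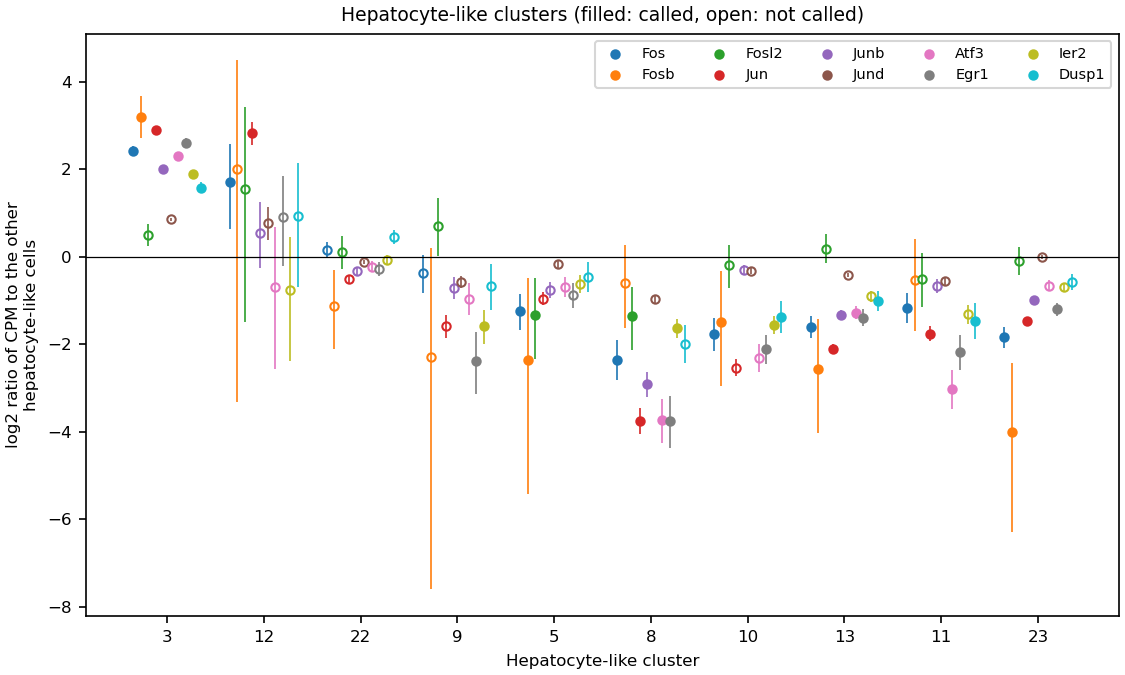
log2 ratio of CPM of each gene in 1 hepatocyte-like cluster to that in all other hepatocyte-like cells (vertical axis), for the 10 clusters (horizontal axis); lines are 95% counting intervals, filled points were called and open points were not. Cluster 3 has 8 filled points above 0, cluster 12 has 2, and clusters 8 and 13 have 7 each below 0.

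The other hepatocyte-like clusters were low or mixed. Cluster 8 (3768 cells, 3624 of them of suffix 1, led by Serpina1e and Elovl3) had 7 members called lower, against 13.4% of genes, with Jun at 14.1 CPM against 190 and Egr1 at 3.60 against 48.4. Cluster 13 (3008 cells, led by Oat, Lhpp and the pericentral enzyme Glul) also had 7 called lower, against 18.8%, and Jun was at 45.9 CPM against 199. Clusters 10, 11 and 23 had 5 each called lower, against 25.6%, 39.7% and 16.4% of genes, so in cluster 11 a low level was common among genes in general. The cycling cluster 5 (576 cells, led by Spc24, Cdk1 and Igf2) had 3 lower (Fos, Fosb and Fosl2), against 6.96%, and its Jun level was 92.6 CPM against 180. Cluster 9 had 2 lower (Egr1 and Ier2), against 9.42%, and cluster 22 none in either direction. Clusters 8, 9, 10 and 11 each come almost wholly from 1 suffix, so cluster and library cannot be told apart there.

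Cluster 12 was small and differed from the rest in its leading genes. It holds 57 cells, all of suffix 3, led by the nuclear RNAs Neat1 and Meg3, with Malat1, another nuclear RNA, at 45060 CPM and a median mitochondrial share of 9.82%. Of the members 2 were called higher (Fos and Jun), a share close to the 21.9% of all genes. The median log2 ratio of the 10 was likewise close, at 0.91 against 0.81 over 8625 genes. With 1 suffix in the comparison, the call could not ask for the same direction in several libraries. Jun was at 1234 CPM against 175 in the other hepatocyte-like cells, and Fos, from 10 UMIs, at 93.5 against 28.9. The nuclear RNA and mitochondrial shares moved with these levels, and their part in the result was not tested.

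The mitochondrial share of a cell's UMIs went with the members' levels in hepatocyte-like cells. Levels in this comparison are per 1000000 non-mitochondrial UMIs, so that the mitochondrial share does not enter the scale. In cells at 10 to 20% mitochondrial UMIs (1025 cells) 8 members were called higher than in cells under 5% (17454 cells), against 31.5% of genes, with a median log2 ratio of 1.32 against 0.50 over 11024 genes. Jun was at 96.5, 238, 390 and 794 CPM in cells with under 1%, 1 to 5%, 5 to 10% and 10 to 20%. Egr1 was at 24.9, 60, 97.9 and 206 CPM and Jund at 309, 381, 407 and 597. Both differed between the lowest and highest bins, Egr1 by the larger factor. Jund (ratio 1.79) and Ier2 (1.65) were the 2 not called.

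Other RNAs moved in the same bins. Malat1 was at 380, 981, 2684 and 7267 CPM and the hepatocyte gene Alb at 1741, 3593, 6229 and 11840. Cells of cluster 3 made up 54.7% of the hepatocyte-like cells at 10 to 20% mitochondrial UMIs and 6.84% of those under 5%. Without cluster 3, 1 member was called higher (Jun, log2 ratio 1.61), the log2 ratio of Egr1 was 0.69, and that of Ier2 was -0.08. A share of all genes is not given for this setting. The share in cluster 3 was 92.9% in suffix 2 and 81.4% in suffix 4 at 10 to 20%, but 4.43% in suffix 3, where Jun was at 47.5 and 279 CPM, and Egr1 at 9 and 23.3, in the lowest and highest bins. In suffix 1, 3607 of 3693 hepatocyte-like cells were under 1% and 63.0% held no mitochondrial UMI, so the comparison rests on suffixes 2, 3 and 4. In vascular endothelial cell-like cells the summed level of the 10 members differed little by bin (11280, 12680, 11930 and 12140 CPM), while Malat1 went from 5934 to 16230 CPM. The pooled sum did differ by bin in other classes: it was 2789, 4287, 4715 and 4492 CPM in B cell-like cells, 2693, 3528, 4430 and 3700 in T cell-like cells and 2685, 4366, 8064 and 5234 in sinusoidal cells. Bins hold different mixes of libraries, and in the sinusoidal cells of suffix 1 the sum was 2499 and 2453 CPM in the first 2 bins. Within each suffix, the B and T cell-like sums were higher in the next bin up, for the bins under 10% that could be compared. For B cell-like cells the first 2 bins held 2880 and 3402 CPM in suffix 1, 2053 and 5097 in suffix 2. In suffix 4 they held 3688 and 5013. The same values in T cell-like cells were 2005 and 2416, 3087 and 3682, and 3570 and 4222. From 1 to 5% to 5 to 10%, suffix 3 went from 3965 to 4579 in B and from 3623 to 4607 in T cell-like cells. At 10 to 20% the B cell-like sum of suffix 3 was no higher, at 4539 CPM (3835 to 5335, 34 cells). The 1706 barcodes of any class that were left out for a mitochondrial share of 20% or more had Jun at 1184 and Egr1 at 257 CPM on the same scale.

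**Figure D3:**
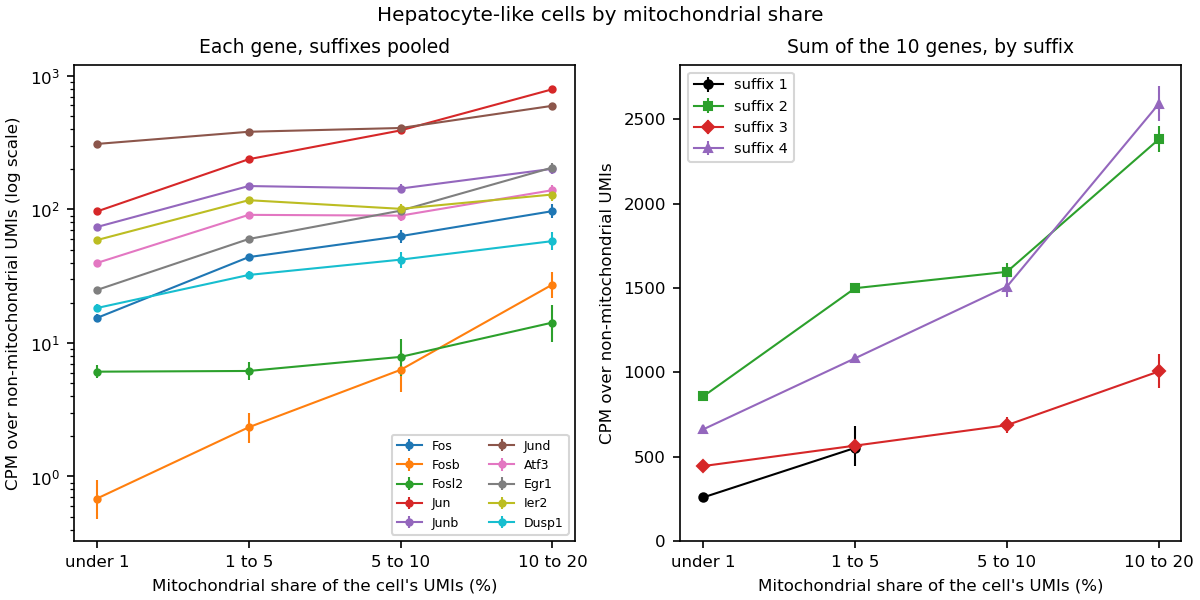
Levels in hepatocyte-like cells by the mitochondrial share of each cell's UMIs (horizontal axis), in CPM over non-mitochondrial UMIs: left, each gene with suffixes pooled on a log axis; right, the summed level of the 10 genes in each suffix on a linear axis, for bins of at least 20 cells. Error bars are 95% Poisson intervals; the sum goes from 644 to 2263 CPM over the pooled bins, and suffix 3 stays at or below 1005 CPM.

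By barcode suffix, hepatocyte-like cells had their lowest level in suffix 1 for 9 members, against 50.7% of genes, and their highest in suffix 2 for 9, against 62.6%. Jun was at 15.6, 276, 77.7 and 156 CPM in suffixes 1 to 4 and Egr1 at 3.76, 60.2, 15.6 and 53.4. Jund was at 182, 399, 260 and 354 CPM, a narrower span. Malat1 was at 86.3, 1110, 923 and 862 CPM in the same cells, and median depths were 1498, 4900, 1348 and 3440 UMIs, so Malat1 and the members were both lowest in suffix 1, and depth was lowest in suffix 3. After thinning every cell to 1000 UMIs, the mean number of member UMIs per hepatocyte-like cell was 0.257, 1.21, 0.475 and 0.814.

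For the summed level, suffix 1 was also the lowest library in most other classes. Among the 13 classes with at least 20 cells in suffix 1, the summed level of the 10 members was lowest there in 11, the exceptions being Kupffer cell-like and mature neutrophil-like cells. In cholangiocyte-like cells only 2 suffixes could be ranked, and no share of all genes is given beside this count. Single members differed: Fosb was lowest in suffix 1 in 4 classes and highest in 4. Egr1 and Ier2 were lowest there in 6, Fosl2 and Atf3 in 7, Dusp1 in 8, Fos and Jund in 9, and Junb in 11. Vascular endothelial cell-like cells had all 10 members lowest in suffix 1, against 34.5% of genes, and sinusoidal cells 9 of 10, against 15.8%. The vascular class sits in different clusters by library: 113 of its 168 cells in suffix 1 are in cluster 20, against 1 of 536 in suffix 2 and 6 of 885 in suffix 4. In cluster 15 alone the summed level was 1595, 13090, 10240 and 13540 CPM in suffixes 1 to 4, the first from 55 cells and 83 UMIs. Of the 9 members with at least 100 UMIs in each class, T cell-like cells had 8 lowest in suffix 1, against 39.4% of genes, whereas Kupffer cell-like cells had all 9 highest there, against 34.3%. Jun was at 2083, 789, 980 and 851 CPM in Kupffer cell-like cells and at 109, 363, 471 and 478 in T cell-like cells. B cell-like cells were at 119, 597, 658 and 692 CPM for Jun but at 1401, 1355, 1296 and 1728 for Jund. NK cell-like cells were at 61.3, 558, 540 and 397 CPM for Jun. Jun was lowest in suffix 1 in 12 of the 13 classes, Kupffer cell-like cells being the exception, although the neutrophil-like value there rests on 6 UMIs. In B cell-like cells Jund was not lowest in suffix 1.

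**Figure D4:**
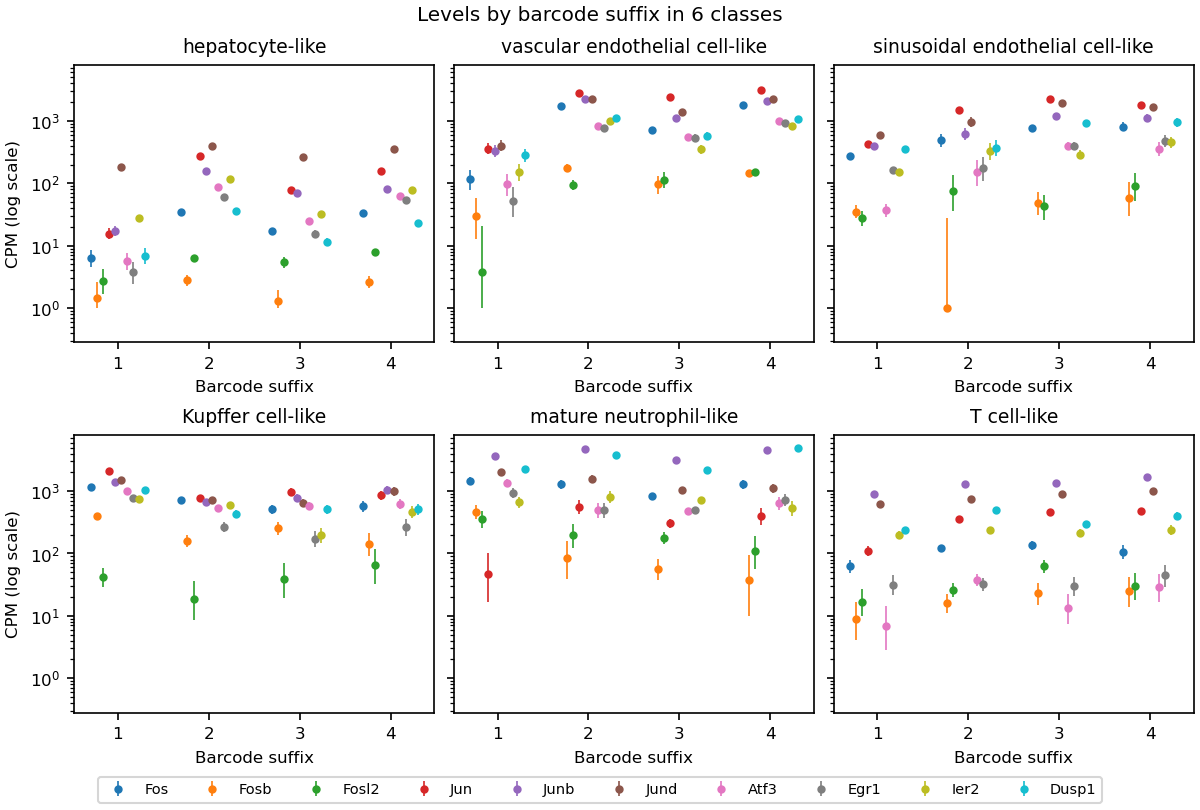
Level of each gene in CPM (log axis) by barcode suffix in 6 classes, with 95% Poisson intervals; only classes with at least 20 cells in a suffix are drawn, and Fosb in the sinusoidal cells of suffix 2, with 0 UMIs, is drawn at 1 CPM. Points of suffix 1 lie lowest in the vascular endothelial cell-like panel (Jun 358 CPM) and, for all genes but Fosl2, highest in the Kupffer cell-like panel (Jun 2083 CPM).

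The members also varied between cells of 1 class. In cells thinned to 1000 UMIs, the 1626 of 16254 hepatocyte-like cells with the most member UMIs held 54.3% of them, and 60.7% of the cells held none. Among 276 erythroid cell-like cells thinned in the same way 45.3% held none, so the share of hepatocyte-like cells with any member UMI was below that of a class low in all of them. In vascular endothelial cell-like cells the 124 of 1237 cells with the most held 29.8%, and 7.11% of cells held none. Thinned this way, Fos and Jun were found in the same cell more often than independence within a class and suffix gives in 23 of 23 class-by-suffix groups, with a median ratio of 1.39. Fos and Egr1 had a median ratio of 1.61 and were above 1 in 16 of 17 groups, while Fosl2 and Jun had a median of 0.985 and were above 1 in 5 of 12. Ratios above 1 were common among member pairs: Jun and Jund were above 1 in 26 of 28 groups, with a median of 1.14. No share over other gene pairs is given beside these counts, and a group can mix clusters with unlike levels. Cells of a group share 1 library, and these ratios are descriptions.

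The gene whose level was most like that of each member was found over 49 class-by-suffix profiles of at least 50 cells, by Pearson's r of log2(CPM + 20) among 10551 genes. Profiles of 1 suffix share a library, and no test was made. Fos was most like Zfp36 (r = 0.893), which encodes an mRNA-destabilising protein, then Egr1 (0.883) and Atf3 (0.872). Dusp1 was most like Nfkbia (0.944), the inhibitor of NF-kappaB, and Nfkbiz (0.900). Junb was most like Dusp1 (0.887) and Klf6 (0.885), and Fosl2 like Dusp1 (0.858). Jun was most like Rhob (0.889), a stress-inducible GTPase gene, followed by Rassf1 (0.769) and Hspa1a (0.758), with no other member among its first 3. Over the same profiles, r with the mitochondrial share was 0.687 for Jun. For the other members it lay between 0.186 (Fosb) and 0.482 (Jund). Jund was most like Junb (0.833), Ier2 like Junb (0.870), Egr1 and Atf3 like Fos (0.883 and 0.872), and Fosb like Atf3 (0.832).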

How the data were processed

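Single cells were profiled with a 10x 3′ version 3 kit, per the labels' protocols. The deposited values are raw UMI counts per gene and barcode, made by the authors with Cell Ranger 6.0.1 per the file header, on genome build mm9 per the submitters' processing notes. The sources used here do not name the annotation. The 4 libraries were deposited in 1 matrix, which is treated as 1 sample because no label maps a suffix to a stage. No per-sample column was left unused (0).

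Barcodes with fewer than 200 genes or 500 UMIs, with 20% or more mitochondrial UMIs (12, 876, 102 and 716 in suffixes 1 to 4) or with a Scrublet doublet score above 0.25 (567, 155, 388 and 257; expected rate 8%) were left out. Scanpy 1.11.5 was used: 2000 variable genes, 30 principal components, 15 neighbours and Leiden clustering at resolution 1, without the members, the wider lists and mitochondrial, ribosomal and haemoglobin genes. Clusters were named from listed markers (at least 3 detected, in 10% of cells); the tie-breaking rule between rival classes was set after seeing the data. UMIs were then added up by class and suffix; the call rule stands in the report and was tested on simulated counts. Median depth was 1767 UMIs per cell, and counting intervals widen in small classes.

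All 10 members are named; other genes are the up to 3 called genes with the largest ratio per list and comparison, and the 3 most alike per member. Nfkbia, Zfp36, Btg2 and Ier3, Malat1 and Alb, Nr4a1, Klf10 and Myc, and genes named as exceptions were chosen after their values were seen. The members and lists were chosen with earlier results of these data known. Promoters are from RefSeq (GRCm38.p6); windows of 8 members are reported.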

Additional observations from a re-analysis of the deposited data

How the results depend on the processing

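The calls were recomputed with other limits on mitochondrial share, depth and UMIs, other clusterings, other scales, cells thinned to 1000 UMIs, and each suffix left out; vascular cluster 15 alone, cells under 5% mitochondrial UMIs, barcodes holding a mitochondrial UMI, and hepatocyte-like cells without cluster 3 were chosen after seeing the data. All 10 members stayed lower in hepatocyte-like cells under every alternative run. Of the gene-level log2 ratios under the alternatives, those keeping their sign numbered 180 of 180 for hepatocyte-like against other cells, 170 of 170 for cluster 3, 168 of 170 for vascular against sinusoidal, 164 of 170 for Kupffer against macrophage, 176 of 180 for neutrophil against macrophage, and 159 of 160 by mitochondrial share; no called value reversed.

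Leaving out each suffix in turn moved the counts of members as follows: highest in vascular cells 0 to 4, in cholangiocyte-like cells 2 to 7, in Kupffer cell-like cells 0 to 1; called higher in vascular over sinusoidal cells 1 to 5; lower in Kupffer over macrophage-like cells 0 to 4; higher in neutrophil over macrophage-like cells 1 to 4 and lower 1 to 3. At equal weight of suffixes, 0 members were highest in vascular, 7 in cholangiocyte-like and 0 in Kupffer cell-like cells; at resolution 0.5, where there is no vascular or Kupffer class, 6 were highest in cholangiocyte-like cells. Vascular over sinusoidal calls were 0 at resolution 2, 0 with doublets kept, 4 with at least 1000 UMIs per cell and 2 for cluster 15 alone. Higher calls in neutrophil over macrophage-like cells were 4 at resolution 2, 1 with the lists kept in the clustering, 1 with doublets kept, 1 with at least 1000 UMIs per cell and 1 under 5% mitochondrial UMIs; lower calls were 2 in thinned cells and 2 with at least 1000 UMIs per cell. Cluster 3 had 5 calls at resolution 2, and the mitochondrial comparison had 1 without cluster 3. No share of all genes is given for these alternatives, so their counts cannot be set against genes in general. Beyond the loss of cells or the move of cluster 15 that these settings make, the cause was not tested.

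No paired analysis was possible because each stage has 1 sample and no suffix is mapped to a stage. The mitochondrial comparison could not be made with a limit of 10% or 5%. Depth limits Fosb and Fosl2 most, whose levels in hepatocyte-like cells are 2.35 and 6.37 CPM.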
